A study of Rattus norvegicus with 4 samples.

Results

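Regenerated soleus was compared with normal soleus on 1 microarray of each, over the 8753 of 26633 genes and transcripts whose probes were printed at least 2 times and lay well above background on both arrays. Both samples came from male rats of 16 weeks, and the soleus is a calf muscle built mainly of slow, fatigue-resistant fibres. The regenerated soleus had been injected with CTX 8 weeks earlier. The labels do not spell this name out, and it usually stands for cardiotoxin, a venom component that kills fibres while the muscle can rebuild itself. Normal muscle is described as that of adult rats, with no injection named. Each group is 1 pool of RNA, equal amounts from 6 muscles, so the spread between animals was not measured. Titles carry the letter R for normal and L for regenerated muscle, without saying whether 1 set of rats gave both. A further pair of arrays held hypertrophied soleus and regenerated soleus after overloading, both at 18 weeks, and serves here as a look at the same genes in samples of their own. How the overload was made and how long it lasted are not stated.

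Skeletal muscle rebuilds after injury from satellite cells, resident stem cells that divide and fuse into new fibres, while macrophages clear debris and fibroblast-like cells lay down matrix. New fibres first make embryonic and neonatal contractile proteins and later the adult slow or fast forms. Slow fibres carry the myosin heavy chain gene Myh7, and the fast forms are Myh2 (type IIA), Myh1 (type IIX) and Myh4 (type IIB).

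The signal of each gene is given as the scanner's processed signal divided by the array's 75th percentile, so that a scaled signal of 1 equals that percentile. A gene was kept when its brightest probe was printed at least 2 times and lay well above background on both arrays, which held for 8753. Of the others, 11274 had a brightest probe printed only once, and 6606 were not well above background on both arrays. Of those 6606, 1307 were above it on the regenerated array alone and 4 on the normal array alone. Local background was 44 intensity units on the normal array and 33 on the regenerated array, and 60.2% against 68.8% of spots were well above background. The part of this gap in the differences of dim genes was not tested. No spot was saturated. The median technical standard error of a log2 difference was 0.070. It comes from the spread between spots of one array and covers neither animals nor labelling.

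Most of the kept genes lay close to their normal level in regenerated muscle, and the genes that were not kept are not covered by this. Over the kept genes the median log2 difference, regenerated minus normal, was -0.09, with quartiles of -0.23 and 0.12, and 63.0% of genes lay within 1.2-fold. Differences of 2-fold or more numbered 143 (1.63%): 105 genes were higher (1.2%) and 38 were lower (0.434%) in regenerated muscle. At 1.5-fold, 735 genes passed (8.4%), of which 573 were higher (6.55%) and 162 lower (1.85%). With the authors' own scaling of the arrays, which puts the median of all kept genes at 0.04 in place of -0.09, the 2-fold split was 166 higher and 25 lower. With normexp background correction, which adds an offset to every signal, 46 were higher and 11 lower, and 16 genes named below or in the closing section as 2-fold higher were under 2-fold: Abcg1, Ccl5, Cd68, Cthrc1, Fasn, Fbn2, Fst, Igfbp5, Loxl1, Ltbp1, Ltbp2, Mfap2, Myh4, Pcsk1n, Plagl1 and Sfrp2. With 1 array per group there is no test, and higher and lower below describe these 2 pooled samples. The cutoff of 2-fold separates no gap in the values: the 3 genes just inside it on the higher side differed by up to 1.01 on the log2 scale, and the 3 just outside by 0.99 each.

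**Figure D1:**
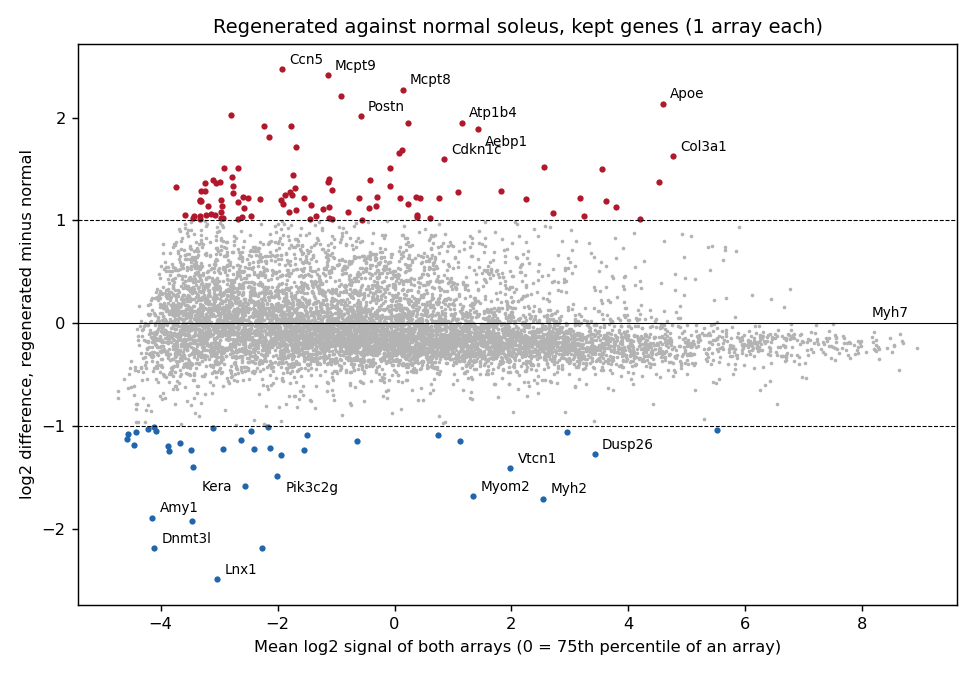
Log2 difference, regenerated minus normal (vertical axis), against the mean log2 signal of both arrays (horizontal axis, 0 is the 75th percentile of an array), 1 point per kept gene, with genes past 2-fold in red (higher) and blue (lower) and dashed lines at 2-fold. The 105 higher genes spread over the whole range of signal, and the brightest of 5 equal groups of genes centres below 0 at -0.19; 1 unmatched transcript with a difference above 4 lies outside the axes.

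The centre of the differences moved with brightness. In the dimmest of 5 equal groups of genes the median difference was 0.01, and in the brightest it was -0.19. The brightest genes of normal soleus were mostly contractile and oxidative genes, and all 10 at the top (Tnnt1, Cryab, Myh6, Mb, Cox6a2, Myh7, Tnnc1, Acta1, Myl3 and Atp5f1a) were slightly lower in regenerated muscle, between -0.11 and -0.46. Small negative medians of bright gene groups, given below, are read against this shift.

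Identity of the tissue was checked first on defining markers. Slow fibre markers were bright on both arrays, with a scaled signal of 375 in normal and 338 in regenerated muscle for Myh7, and 311 and 274 for the slow troponin I gene Tnni1. The summed signal of the 5 slow fibre markers was 1724 in normal and 1471 in regenerated muscle, and 0 of the 5 were higher after regeneration. Fibroblast markers summed to 43.7 and 73.1, macrophage markers to 2.56 and 4.33, and adipocyte markers to 10.6 and 23.0. Bright genes made up most of the fibroblast and adipocyte sums. Cfd, also on the complement list, read 9.36 and 20.5, Col1a1 14.3 and 36.9, and Dcn 28.0 and 33.9. Of the markers well above background on both arrays, 4 fibroblast, 5 macrophage and 3 adipocyte ones, all had a positive difference. It was small with overlapping spots for Mrc1 (0.02) and for Cd34 (0.12), which turned to -0.03 with normexp background correction. Endothelial markers (11.8 and 12.2), smooth muscle markers (4.28 and 4.32) and red cell markers (192 and 185) were close on both arrays. Of the B cell markers none was above background, and of the T cell and neutrophil markers 1 each, so these lists carry little. In pooled tissue RNA, a change in the number of cells of a type and a change in RNA per cell cannot be told apart, and that holds for every group of genes below. The part of these cell type markers in the differences below was not tested.

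Extracellular matrix genes gave the list with the highest median of the 47 lists read, the collagens. Type III collagen, the early fibrillar collagen of repair tissue, had a scaled Col3a1 signal of 15.5 in normal and 47.7 in regenerated muscle, a log2 difference of 1.63 (technical SE 0.05). Col1a1, the main chain of type I collagen, read 14.3 and 36.9, a difference of 1.37, and its partner chain Col1a2 read 43.1 and 82.5, a difference of 0.94. Their spots did not overlap between the arrays. Of 12 kept collagen genes, 4 were 2-fold and 11 were 1.5-fold higher and none was lower, with a median difference of 0.93 against -0.09 over all kept genes. Col5a1 (1.33), which nucleates thin fibrils, and Col6a2 (1.05), a chain of the microfibrils around fibres, were the other members past 2-fold. Basement membrane collagens were higher by less, with 0.70 for Col4a1, 0.80 for Col15a1 and 0.88 for Col18a1, and the fibril-associated Col14a1 stood at 0.94. The exception was Col11a1, a cartilage fibril collagen, at -0.05 with overlapping spots.

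Matrix glycoproteins and proteoglycans held 3 of the larger positive differences. Ccn5, a secreted matricellular protein of the CCN family, read 0.112 in normal and 0.620 in regenerated muscle over 10 and 8 spots, which is 5.53-fold (log2 2.47, technical SE 0.06). With normexp background correction it was 3.05-fold (log2 1.61). Postn encodes periostin, a matricellular protein of healing tissue, and read 0.334 and 1.35 (log2 2.01). Aebp1, a secreted collagen-binding protein, read 1.40 and 5.17 (log2 1.88). All 3 had spots apart on both arrays. Among 25 kept members 7 were 2-fold and 15 were 1.5-fold higher, none was lower by either measure, and the median was 0.71. Fibronectin (Fn1, 1.22), the microfibril genes Fbn2 (1.38) and Mfap2 (1.36), and the small leucine-rich protein gene Prelp (1.14) made up the rest of the 7. Not all members differed: decorin (Dcn) stood at 0.27, Sparcl1 at 0.22, asporin (Aspn) at 0.18 and fibromodulin (Fmod), which shapes collagen fibrils in tendon, at -0.20.

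Enzymes that process matrix were higher less widely. Of 19 kept members 2 passed 2-fold, 9 passed 1.5-fold upward and none downward, with a median of 0.49 (0.24 with normexp background correction). Mmp14, a membrane-bound collagenase and activator of gelatinase, read 1.37 and 3.31 over 10 spots (log2 1.27, technical SE 0.03). Loxl1, which crosslinks elastin and collagen, was higher by 1.08, and the protease inhibitor Timp2 by 0.85. Prolyl hydroxylase P4ha2 (-0.21), Adamts1 (-0.15) and Timp4 (-0.08) were near the centre of all genes. Basement membrane and adhesion genes had a median of 0.26 with 2 of 17 past 1.5-fold upward, near the 6.55% of all kept genes, and the median was 0.11 with normexp background correction. Nidogen-2 (Nid2, 0.67), the fibronectin receptor chain Itga5 (0.59) and laminin alpha-5 (Lama5, 0.52) were at the top, and the sarcoglycan gene Sgcb (-0.32), whose protein sits in the fibre membrane, near the bottom.

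Genes of fibroblasts and fibro-adipogenic progenitors, the mesenchymal cells between fibres, followed the matrix. Of 12 kept members 2 were 2-fold and 7 were 1.5-fold higher, 1 was 1.5-fold lower, and the median was 0.66. Cthrc1, a secreted protein of matrix-producing fibroblasts, was higher by 1.21 and Cd248, a stromal surface glycoprotein, by 1.07. The receptor genes Pdgfra (1.30 and 2.17 in scaled signal) and Pdgfrb, the latter also on the smooth muscle and pericyte list, differed by 0.74 and 0.76. Cd34 stood at 0.12. Dpp4, a surface peptidase of a fibroblast subset, went the other way, with 0.278 in normal and 0.178 in regenerated muscle (log2 -0.64).

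Growth factor pathways that act on matrix cells showed a few large differences among many small ones. In TGF-beta and BMP signalling 3 of 17 members were 2-fold and 5 were 1.5-fold higher, and the median was 0.30. Gdf10, a BMP-family ligand, read 0.109 and 0.412 over 10 spots (log2 1.91, technical SE 0.06, and log2 1.16 with normexp background correction). Ltbp1 and Ltbp2, of the family of proteins that bind latent TGF-beta in the matrix, were higher by 1.22 and 1.16. The receptors Bmpr1a (-0.09) and Bmpr2 (-0.06) lay at the centre of all genes and the decoy receptor Bambi at -0.52. Of 8 kept Wnt genes 2 were 2-fold and 3 were 1.5-fold higher, 1 was 1.5-fold lower, and the median was 0.52. With normexp background correction the median was 0.24 for Wnt and 0.16 for TGF-beta and BMP genes. The secreted antagonists were the high ones: Sfrp4 read 0.612 and 1.97 (log2 1.69) and Sfrp2 0.072 and 0.189 (log2 1.40). The Wnt inhibitor-family gene Dkk3 (0.74), the receptor Fzd1 (0.58) and the antagonist Frzb (0.47) were higher by less. Rspo3, a secreted enhancer of Wnt signalling, was lower, with 2.31 in normal and 1.24 in regenerated muscle (log2 -0.90). Carboxypeptidase Z (Cpz), a secreted enzyme with a Wnt-binding domain, read 0.121 and 0.422 (log2 1.81, and 1.15 with normexp).

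Promoters of genes that the results turn on are shown for reference, with the bases of searched motifs in capitals. They are from RefSeq, assembly GRCr8, and cover the 150 bases before the transcription start, 5′ to 3′ on the gene's strand. Postn stands for the matrix genes, Atp1b4 for the fibre genes that were higher, and Myh2 and Myh4 for fast myosin genes of the same chromosome that differed in opposite directions.
Postn (chr2:140677911-140678060, plus strand): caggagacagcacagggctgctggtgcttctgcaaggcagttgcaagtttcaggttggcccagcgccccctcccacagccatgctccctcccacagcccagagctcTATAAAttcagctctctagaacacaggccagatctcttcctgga
Atp1b4 (chrX:121952827-121952976, plus strand): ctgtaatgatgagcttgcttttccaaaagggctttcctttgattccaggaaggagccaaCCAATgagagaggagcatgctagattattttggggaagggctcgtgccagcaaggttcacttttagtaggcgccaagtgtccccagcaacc
Myh2 (chr10:52355589-52355738, plus strand): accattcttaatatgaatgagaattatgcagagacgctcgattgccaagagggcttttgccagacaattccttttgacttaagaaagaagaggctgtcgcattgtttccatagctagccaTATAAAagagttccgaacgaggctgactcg
Myh4 (chr10:52421998-52422147, plus strand): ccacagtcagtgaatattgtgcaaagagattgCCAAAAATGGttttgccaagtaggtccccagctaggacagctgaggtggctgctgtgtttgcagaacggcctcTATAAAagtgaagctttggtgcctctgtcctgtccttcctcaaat
The capitals mark TATAAA in Postn, Myh2 and Myh4, CCAAT in Atp1b4 and, in Myh4, a match to the CArG box, the motif of serum response factor. Motifs were searched on both strands of the 250 bases before each start. The promoters of Actn3 and Apoe were looked at too, held no match and are not shown. TATAAA was in 7 of 61 promoters of 2-fold higher genes (11.5%), 3 of 25 of lower genes (12%), 7.43% of kept genes with a promoter and 13.1% of all 27457 promoters. CCAAT was in 19.7%, 24%, 36.4% and 34.3% of the same sets. The core of the MEF2 site (CTA, any 4 bases, TAG) was in 0, 8%, 2.97% and 3.43%, and the CArG box in 1.64%, 0, 1.14% and 1.5%. A match describes letters in a window and says nothing of binding.

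Fast contractile genes held several of the larger differences among fibre genes, and they went both ways. Myh2, the type IIA myosin heavy chain, read 10.5 in normal and 3.22 in regenerated muscle, which is 3.26-fold lower (log2 -1.71, technical SE 0.05). Myh4, the type IIB heavy chain, read 0.248 and 0.551 (log2 1.15, technical SE 0.10). Myh1, the type IIX chain, read 2.09 and 2.70 (log2 0.37). So within 1 family of fast myosins 1 member was lower and another higher past 2-fold, and in neither did spots of the arrays overlap. The Z-disc crosslinker Actn3, a gene of glycolytic fast fibres, was higher (0.808 and 1.47, log2 0.86). Fast troponin subunits were lower: Tnnt3 read 14.9 and 7.68 (log2 -0.95), Tnni2 54.0 and 28.3 (log2 -0.93), and Tnnc2 differed by -0.53. Tpm1, a tropomyosin gene with several transcript forms, was lower by 1.06 on its brightest probe, from 11.2 to 5.35, but its second probe was higher by 0.33, and its difference was under 2-fold with quantile normalization, cyclic loess, the authors' scaling and the mean over probes. Myoz1 (-0.65) and the myosin light chain kinase Mylk2 (-0.43) were lower, while Myl1 (-0.11) and parvalbumin (Pvalb, 0.02) lay near the centre of all genes. Over 12 kept members 1 was 2-fold higher and 2 were lower, 2 were 1.5-fold higher and 5 were lower, and the median was -0.48 (-0.28 with cyclic loess).

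**Figure D2:**
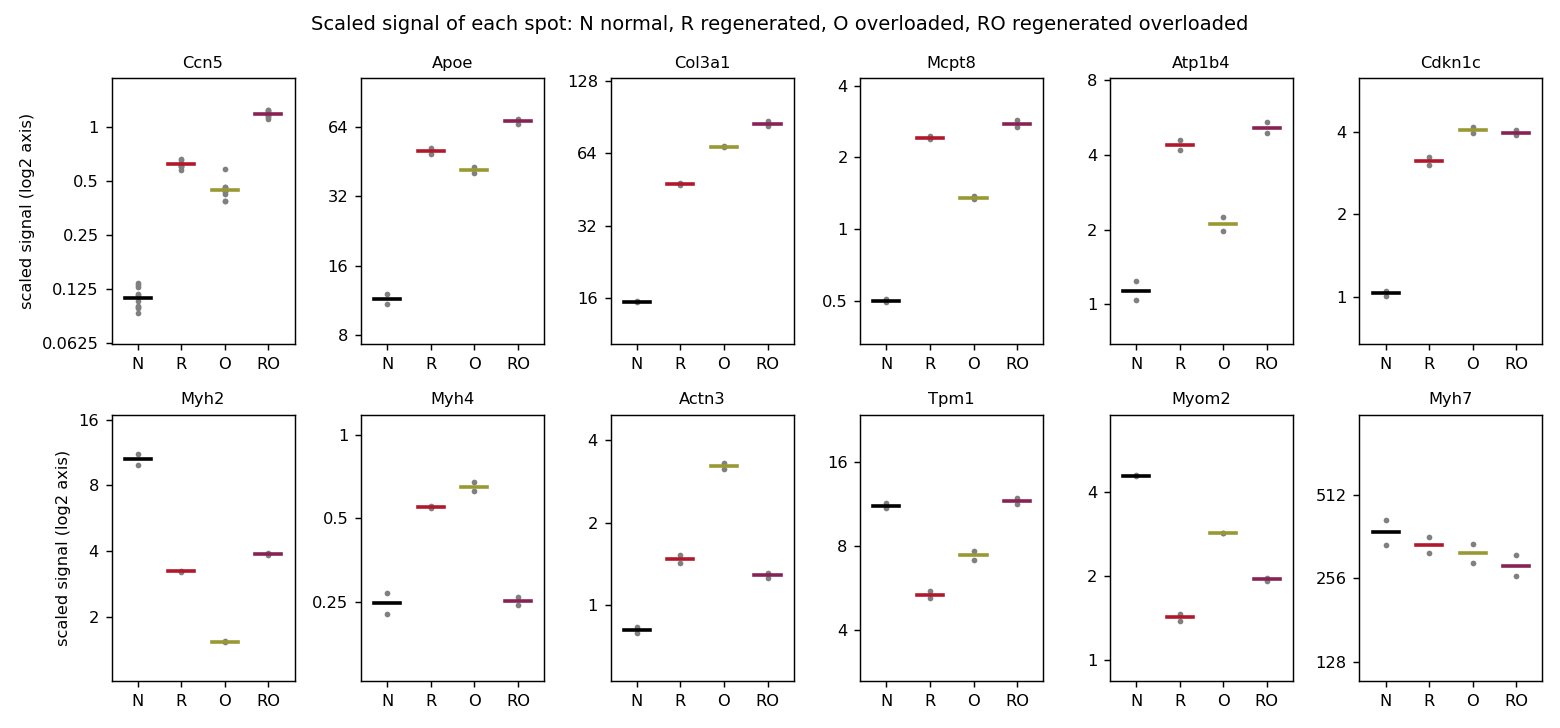
Scaled signal on a log2 axis for 12 genes (1 panel each) on the 4 arrays, with a point for each spot and a bar for their mean; N is normal, R regenerated, O overloaded and RO regenerated overloaded muscle. All 6 genes of the top row are higher in R than in N, Myh2, Tpm1 and Myom2 are lower, Myh4 reads 0.248 in N, 0.551 in R, 0.651 in O and 0.253 in RO, and the bars of Myh7 lie between 285 and 375 on all arrays.

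Slow contractile genes, the bulk of soleus contractile RNA, lay close to their normal level. All 11 kept members lay between -0.30 (Myl2) and -0.11 (Myh6, Csrp3), with a median of -0.22. None passed 1.5-fold, against 8.4% of all kept genes. That small negative median was -0.18 with normexp background correction and -0.01 with quantile normalization. It turned to 0.03 with cyclic loess, which removes the trend with brightness, so its direction depended on the processing. Because slow fibre genes are among the brightest, a lower level of them and that trend cannot be told apart. Myh7 and Myh6 are near-identical genes side by side in the genome, and their probes are not taken as specific. Scaffold genes of the sarcomere had a like median, -0.23 (-0.04 with cyclic loess), with 1 exception. Myom2, the M-band protein of fast fibres, read 4.57 in normal and 1.42 in regenerated muscle (log2 -1.69, technical SE 0.06), while the M-band protein of all fibres, Myom1, differed by -0.24. Skeletal actin (Acta1) differed by -0.35, desmin (Des) by -0.17 and filamin C (Flnc) by -0.08.

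Genes of developing fibres gave no common direction at 8 weeks. Embryonic myosin Myh3 was higher by 0.56 and the cardiac-type troponins Tnni3 and Tnnt2, which immature fibres also make, by 0.81 and 0.47. The probe for neonatal myosin Myh8 read 150.8 and 104.8 (log2 -0.53). That level in normal muscle was above the 10.5 of Myh2, and whether the probe reads Myh8 alone was not tested. Cardiac actin Actc1, the actin of immature fibres, read 44.0 and 28.0 (log2 -0.65). Of 8 kept members 1 was 1.5-fold higher and 1 was lower. All 12 kept satellite cell and myogenic genes lay within 1.5-fold. They ran from Sdc4 (-0.35) and Myf5 (-0.28) to the myogenic factor Myod1 (0.50) and the adhesion receptor Vcam1 (0.54). Cell cycle genes, 12 kept, ranged from -0.45 for Tk1 to 0.37 for Mcm2, with the proliferation marker Mki67 at -0.03. Their median was 0.03 and none passed 1.5-fold. Over all kept genes 8.4% passed 1.5-fold, so that lists of 12 would hold few such genes in any case.

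Among calcium handling genes 1 of 11 kept members was 2-fold lower. Phospholamban (Pln), the regulator of the slow-fibre calcium pump, read 3.22 and 1.46, 2.21-fold lower (log2 -1.14). The voltage sensor Cacna1s (-0.57), the fast-fibre pump Atp2a1 (-0.56) and the junctophilin Jph2 (-0.55) were lower by less than 1.5-fold. The median of the list was -0.31, and -0.26 with normexp background correction. It shrank to -0.09 with quantile normalization and to -0.05 with cyclic loess, where the median of all kept genes was -0.04. The list thus stayed below 0, by an amount that depended on the processing. Sarcolipin (Sln, 0.24), the other pump regulator, was the only member above 0. Among ion pumps and channels the muscle chloride channel Clcn1 differed by -0.73, the muscle sodium channel Scn4a by -0.52 and the potassium channel Kcnj11 by -0.45. The exception was Atp1b4, a muscle protein related to the sodium pump beta subunits that sits in the nuclear membrane in placental mammals. It read 1.13 in normal and 4.38 in regenerated muscle, 3.87-fold higher (log2 1.95, technical SE 0.06), and was the only one of 16 past 1.5-fold upward.

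Energy metabolism differed by small, even amounts. All 34 kept genes of oxidative phosphorylation and the TCA cycle were lower, between -0.40 (Sdhb) and -0.08 (Idh3a), with a median of -0.23 that became -0.02 with cyclic loess. Fatty acid uptake and oxidation had 22 of 25 members below 0 and a median of -0.20, which became 0.00 with cyclic loess. Carnitine transfer genes Cpt1b (-0.41) and Slc25a20 (-0.40) were its lowest and the uncoupling protein Ucp2 (0.52) its highest. Glycolysis and glycogen genes had a median of -0.25 (-0.11 with cyclic loess) and 1 of 22 past 1.5-fold: Fbp2, the muscle fructose bisphosphatase, at -0.65, followed by the phosphorylase kinase subunit Phka1 (-0.55) and glycogen phosphorylase Pygm (-0.43). Regulators of mitochondria leaned lower under every alternative tried, with medians from -0.36 to -0.21. Of those 12 members the nuclear receptor Esrrg stood at -0.73 and the coactivator Ppargc1a, a driver of mitochondrial biogenesis, at -0.46, both from dim probes (scaled signals of 0.065 and 0.039 for Esrrg).

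Several lipid carrier and adipocyte genes were higher, and others of the same lists were not. Apoe, the lipid carrier made by macrophages and other cells, was among the 15 highest genes and was bright on both arrays: 11.5 in normal and 50.4 in regenerated muscle, 4.39-fold (log2 2.13, technical SE 0.05). The cholesterol exporter Abcg1 was higher by 1.29 and the lipoprotein receptor Lrp1 by 0.76. Cholesterol synthesis genes Hmgcs1 (-0.24) and Idi1 (-0.19) lay near the centre of all genes. In the adipocyte and lipogenic list, 4 of 17 members were 2-fold and 8 were 1.5-fold higher, 1 was lower, and the median was 0.41. Scd, the desaturase of fatty acid synthesis, read 0.171 and 0.562 (log2 1.72). The adipokines resistin (Retn), adipsin (Cfd) and adiponectin (Adipoq) were higher by 1.51, 1.13 and 0.97, and fatty acid synthase (Fasn) by 1.02. Lipoprotein lipase (Lpl, -0.39), the fatty acid transporter Cd36 (-0.29) and the carboxylase Acaca (-0.69) were below 0. So were 3 other members, the lipid droplet gene Cidea (-0.19), the triglyceride synthesis gene Dgat2 (-0.14) and the lipase gene Pnpla2 (-0.12). Leptin, the remaining adipocyte marker with a value, was not above background on either array.

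Immune genes were higher in several families. Of 22 kept macrophage genes 2 were 2-fold and 12 were 1.5-fold higher, none was lower, and the median was 0.61. The lysosomal glycoprotein genes Gpnmb and Cd68 read 0.840 and 1.96 (log2 1.22), and 0.906 and 1.88 (log2 1.05). The leukocyte integrin chain Itgb2 was higher by 0.95. Its myeloid partner Itgam (-0.25), the chemokine receptor Cx3cr1 (0.02) and the mannose receptor Mrc1 (0.02) were not, each with overlapping spots. Complement genes, made by macrophages, fibroblasts and fat, had 3 of 13 past 2-fold and 9 past 1.5-fold, all upward, with a median of 0.69. C2 was higher by 1.22, C4a by 1.19 (8.16 and 18.6 in scaled signal) and Cfd, also on the adipocyte list, by 1.13. The membrane inhibitor Cd55 stood at -0.26.

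Chemokines and antigen presentation followed with smaller differences. Ccl11, the eosinophil attractant eotaxin, read 0.151 and 0.571 (log2 1.92, technical SE 0.12, and log2 1.31 with normexp) and Ccl5, a T cell attractant, 0.333 and 0.675 (log2 1.02). Both lead a list in which 7 of 17 members were 1.5-fold higher and the median was 0.47 (0.25 with normexp background correction). Cxcl12, the attractant of stem cells, stood at -0.15. Antigen presentation genes had a median of 0.49 (0.32 with that correction) and 3 of 13 past 1.5-fold: the immunoproteasome subunits Psmb8 (0.83) and Psmb9 (0.70) and the invariant chain Cd74 (0.66). Interferon genes had 4 of 19 past 1.5-fold and a median of 0.30 (0.14 with normexp background correction), led by Ifi44 (0.74), Irf7 (0.65) and Gbp2 (0.65). Of 7 kept lymphocyte genes, Cd3g and Ptprc were 1.5-fold higher and Cd5 1.5-fold lower.

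Mast cell genes gave a sharp split within 1 list. Mcpt9 read 0.196 in normal and 1.05 in regenerated muscle (log2 2.41) and Mcpt8, a protease of basophils, 0.502 and 2.42 (log2 2.27). No other kept mast cell gene followed: Cpa3 (-0.21), Tpsab1 (-0.13), Tpsb2 (0.06), Cma1 (0.18) and Mcpt1 (0.30) all lay within 1.5-fold. So did the histamine enzyme Hdc (-0.01) and the eosinophil granule gene Prg2 (-0.05). The mast cell markers Kit and Ms4a2 were not kept, and both were above background on the regenerated but not on the normal array. Kit read 0.019 in normal and 0.053 in regenerated muscle, and Ms4a2 0.051 and 0.058. With normal signals not above background, the size of these differences cannot be judged. Mcpt8 and Mcpt9 belong to a family of similar genes, and whether their probes read 1 gene each is uncertain. The acute-phase protease inhibitor Serpina3n was also among the highest, with 0.591 and 1.86 (log2 1.66).

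Growth signalling around IGF had 3 members past 2-fold among 21, in a list whose median was 0.08 and turned to -0.02 with normexp background correction. Igf1, the growth factor made by fibres, macrophages and stroma, read 12.9 and 26.1 (log2 1.02, technical SE 0.05), and its second probe gave 1.08. Its binding protein Igfbp5 was higher by 1.04 and follistatin (Fst), a myostatin inhibitor, by 1.12. The lowest members were the activin chain Inhba (-0.42), the growth kinase Mtor (-0.39) and the insulin receptor adaptor Irs2 (-0.31), all within 1.5-fold. Cell cycle inhibitors held 1 outstanding member: Cdkn1c, which encodes p57, read 1.03 and 3.12 (log2 1.59, technical SE 0.06) with 1.46 on its second probe. The other 12 kept members, Cdkn1b (-0.16) among them, lay within 1.5-fold.

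Protein turnover and stress genes lay close to normal. None of 19 atrophy and autophagy genes passed 1.5-fold, against 8.4% of all kept genes. The ubiquitin ligase of atrophy, Fbxo32, was the lowest at -0.57. Proteasome genes (22 kept, median -0.18, and -0.02 with cyclic loess) had the interferon-linked activators Psme2 (0.33) and Psme1 (0.21) as the only members above 0. Of 11 heat shock genes 10 were below 0, with a median of -0.22 that became -0.04 with quantile normalization and with cyclic loess, and Hspa5, the chaperone of the endoplasmic reticulum, was at 0.31. Ribosomal protein genes had a median of -0.14 that became 0.05 with quantile normalization and 0.08 with cyclic loess, and Rpl3 alone stood out at 0.40. None of the kept circadian (14), immediate early (13) or glucocorticoid-responsive (16) genes passed 1.5-fold, where 8.4% of all kept genes did, so that lists of this size would hold few such genes in any case. Bmal1 and Nfil3 were the lowest clock genes at -0.46 and -0.40, and Myc the highest immediate early gene at 0.57.

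Nerve, vessel and tendon genes were mixed. At the neuromuscular junction the acetylcholine receptor subunits Chrnd (-0.39), Chrne (-0.38), the adult form, and Chrna1 (-0.34) were slightly lower, the fetal subunit Chrng was higher by 0.48, and utrophin (Utrn) by 0.72, the only one of 15 past 1.5-fold. Schwann cell and nerve genes (8 kept) had a median of 0.15, which became -0.01 with normexp background correction, and the summed signal of 4 Schwann cell markers was 0.673 in normal and 0.878 in regenerated muscle. The glial calcium-binding protein gene S100b was higher by 0.69 and Cnp, a myelin enzyme gene, by 0.29, and the myelin gene Mbp stood at -0.20. The highest of the list was Sncg. It encodes a synuclein of sensory neurons and fat cells and read 0.596 and 2.29 (log2 1.94). Endothelial and angiogenic genes had a median of 0.07, and Vegfb, at -0.66, was the only one of 20 past 1.5-fold. Smooth muscle and pericyte genes had a median of 0.14, with Aoc3 (0.82) and Pdgfrb (0.76) past 1.5-fold. Among 9 tendon and cartilage genes, the cartilage matrix protein Cilp was higher by 1.39 and keratocan (Kera), a corneal and tendon proteoglycan, lower by 1.58, from 0.293 to 0.098 in scaled signal. Tenomodulin (Tnmd, -0.51) and scleraxis (Scx, -0.32) leaned lower and Thbs4 (0.87) higher. Of load-responsive genes, Ankrd1 (-0.12) and Ankrd2 (-0.15) stayed near the centre, Mustn1 was at -0.54 and Ccn2, also a matrix gene, at 0.71. Annexins and repair proteins (18 kept, median 0.24) ran from calpain-3 (Capn3, -0.46) and dysferlin (Dysf, -0.15) to S100a11 (0.65).

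**Figure D3:**
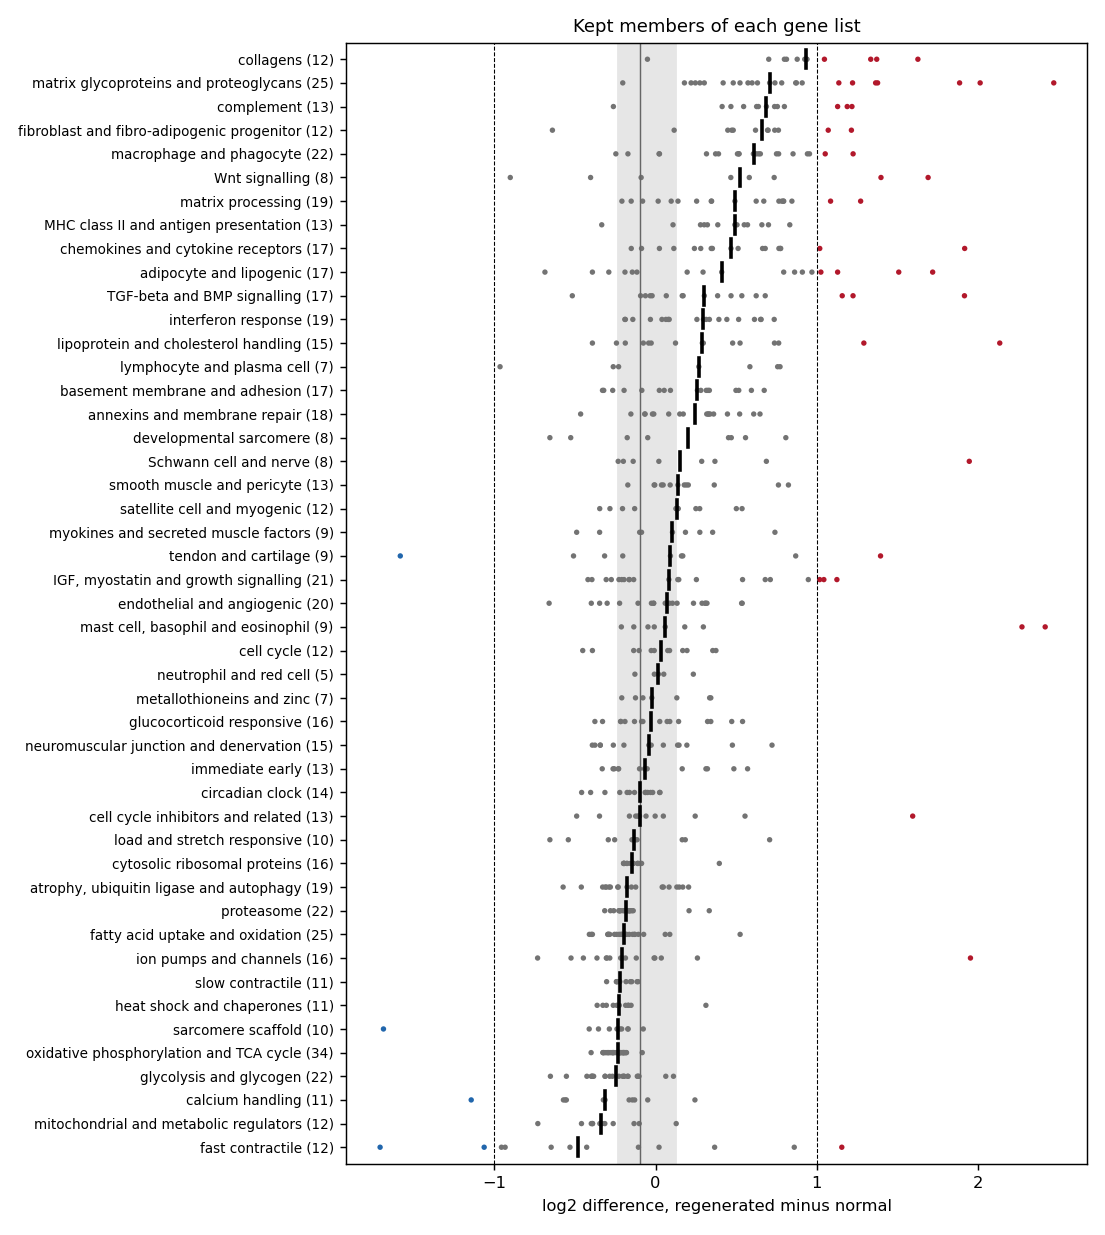
Log2 difference, regenerated minus normal, of the kept members of 47 gene lists, with the number kept in brackets; each point is 1 gene, the black bar is the list's median, and the grey band spans the quartiles of all kept genes (-0.23 to 0.12). Collagens (0.93), matrix glycoproteins (0.71), complement (0.69), fibroblast (0.66) and macrophage genes (0.61) are at the top and fast contractile genes (-0.48) at the bottom; genes may be on several lists.

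The genes lowest in regenerated muscle came from no single list. Lnx1, a ubiquitin ligase of the Notch inhibitor Numb, read 0.290 and 0.052, 5.62-fold lower (log2 -2.49, technical SE 0.16), and 2.85-fold lower with normexp. Brighter genes among the lowest were Vtcn1, an immune checkpoint ligand, with 6.43 and 2.42 (log2 -1.41), and Dusp26, a phosphatase, with 16.7 and 6.89 (log2 -1.28). Pik3c2g, a lipid kinase, read 0.413 and 0.148 (log2 -1.48), and its second probe gave -1.58. Vtcn1 had a second probe as well, at -1.25. The remaining named genes at this end were dim on the regenerated array, with scaled signals of 0.027 to 0.167: Dnmt3l (-2.19), Amy1 (-1.89), Defb51 (-1.40), Hpd (-1.28), Dmkn (-1.25), Sim1 (-1.24), Slc38a1 (-1.22) and Slc22a4 (-1.19). Each of those 8 was under 2-fold with normexp background correction. Of 143 genes past 2-fold, 8 had a second probe above background, and 7 of those 8 differed in the same direction, 5 of them by 2-fold or more. Tpm1 was the exception.

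A related contrast, regenerated overloaded against overloaded muscle, was available in a pair of arrays that shares no array with the first. It is not a repeat of the first contrast, since load and age differ (18 weeks in place of 16). There 52 of 8741 genes differed by 2-fold or more (0.595%), 38 of them higher (0.435%) and 14 lower (0.16%), and 225 by 1.5-fold or more (2.57%). Of the 105 genes 2-fold higher in regenerated muscle, 99 were higher in regenerated overloaded than in overloaded muscle, 46 by 1.5-fold and 16 by 2-fold, where 1.69% of all kept genes were 1.5-fold higher. Their median difference was 1.22 in the first pair and 0.51 in the overloaded pair. They were chosen for large values in the first pair, and such a choice by itself favours a smaller second median. Fewer of all kept genes passed 2-fold in the overloaded pair as well, 0.595% against 1.63%. How much of the smaller median comes from the choice was not tested. Of the 38 lower genes 34 had a value in both pairs. Of these, 28 were lower again, 15 by 1.5-fold, where 0.881% of all kept genes were 1.5-fold lower. Their medians were -1.21 and -0.52. Of all 8741 genes, 3893 were higher in the overloaded pair. Over all 8741 genes 70.3% had the same sign, and the differences correlated with Pearson r of 0.58 and Spearman rho of 0.54, across genes, which share arrays and are not independent.

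**Figure D4:**
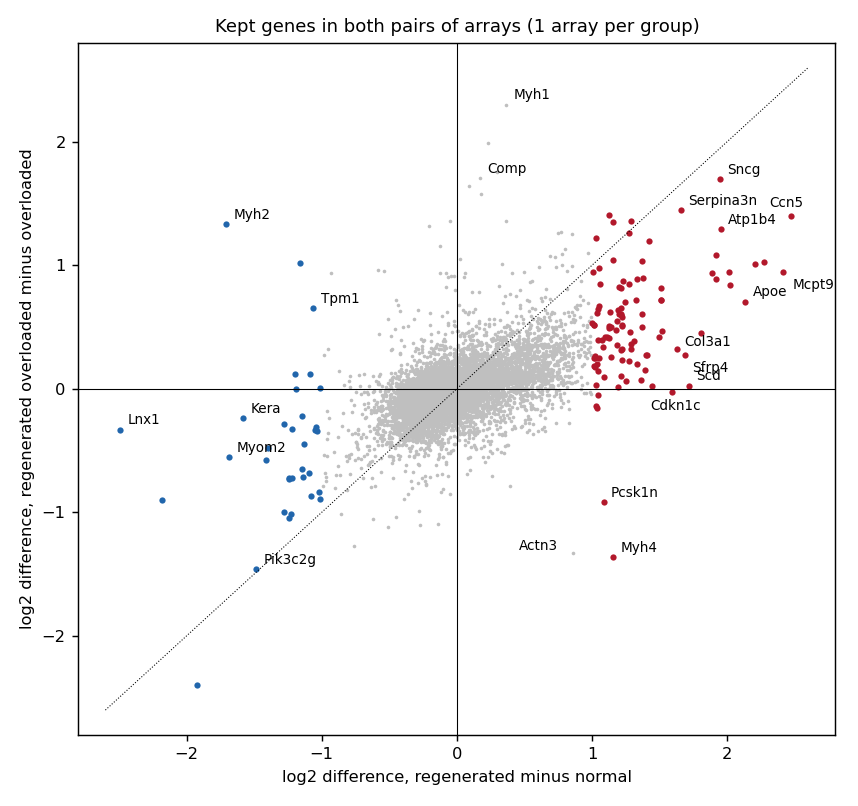
Log2 difference in regenerated overloaded minus overloaded muscle (vertical axis) against regenerated minus normal muscle (horizontal axis), 1 point per kept gene, with genes past 2-fold in the first pair in red and blue; the dotted line marks equal differences. Most coloured points lie in the quadrants of equal sign and nearer to 0 on the vertical axis (median 0.51 for the 105 higher genes), while Myh2, Tpm1, Myh4 and Pcsk1n lie in the quadrants of opposite sign; 1 unmatched transcript is outside the axes.

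Single genes differed in how much of the first difference the overloaded pair showed. Sncg (1.70), Serpina3n (1.45), Ccn5 (1.40), Atp1b4 (1.29), Ccl11 (1.08) and Mcpt8 (1.02) stayed past 2-fold, as did the lower genes Pik3c2g (-1.46) and Dmkn (-1.05). Ltbp2, at 1.35, was larger there than in the first pair. By contrast Scd stood at 0.02 and Cdkn1c at -0.03, with overloaded muscle near or above the level of regenerated muscle for both. Scd read 0.171 in normal, 0.562 in regenerated, 0.533 in overloaded and 0.542 in regenerated overloaded muscle. Cdkn1c read 1.03 in normal, 3.12 in regenerated, 4.04 in overloaded and 3.96 in regenerated overloaded muscle. Col3a1 read 15.5, 47.7, 68.2 and 85.1 in the same order, so that regenerated overloaded exceeded overloaded muscle by 0.32. List medians in the overloaded pair were 0.35 for collagens, 0.36 for matrix glycoproteins, 0.21 for complement, 0.09 for macrophage and 0.05 for antigen presentation genes, against -0.02 over all kept genes. Interferon genes, at 0.30 in the first pair, had a median of -0.15.

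Fast fibre genes differed between the pairs. Myh2 read 1.53 in overloaded and 3.86 in regenerated overloaded muscle, higher by 1.33 where it had been lower by 1.71, and Tnni2 read 10.9 and 20.8, higher by 0.93. Myh1 read 0.635 and 3.12 (log2 2.30). Actn3 went the opposite way, with 3.22 and 1.28 (log2 -1.33), as did Myh4, with 0.651 and 0.253 (log2 -1.36). Of 12 fast contractile genes 5 were 1.5-fold higher and 2 were lower in that pair, and the median was 0.22. Tendon and cartilage genes also parted from the first pair, with Comp at 1.70, Chad at 1.64 and Fmod at 1.32 where they had been at 0.17, 0.09 and -0.20, and a list median of 0.56 against 0.09. The slow genes stayed near the centre, with a median of -0.10. Whether any of these differences between the pairs exceeds the spread between animals was not tested, since each group is 1 pool.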

How the data were processed

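Per the file headers, the deposited scanner files hold the processed signal of each spot as an intensity, background-subtracted and detrended by Feature Extraction 11.5.1.1 (10.10.1.1 per the submitters' processing notes), with flags for spots well above background or outlying. The authors' deposited series table is the same intensity times 1 constant per array, on a linear scale without centring; how the constant was chosen is not given in the sources used here. Here, outlier spots (406 on the normal and 450 on the regenerated array) were left out, log2 signals were reduced by the log2 of each array's 75th percentile, spots were averaged per probe, and the brightest probe stood for a gene. Of 30367 probes, 18643 matched 15637 RefSeq symbols by accession. All hybridisations were on 1 slide, where the normal and regenerated arrays shared a row, and precision is limited by there being only 1 array per group. Technical standard errors pool the spot spread over 20 bins of signal. No test was possible with 1 array per group. The 2-fold and 1.5-fold rules, the members, the 47 lists and the naming rule were chosen with earlier results of these data known. Named were the 15 highest and 15 lowest genes with a symbol and spots apart, the 3 highest and 3 lowest of each list, every member of lists with up to 12 kept, the 10 brightest, up to 5 opposite in the overloaded pair, and cell type markers. Fn1, Fbn2, Mfap2, Prelp, Fasn, Nnat and Plagl1 were named after their values were seen. Some genes that the rule names are not reported here. Alternatives numbered 13 and are given in the closing section. Calculations used Python 3.11.15, numpy 2.4.6, pandas 2.3.3 and limma 3.58.1 and were tested on simulated data.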

Additional observations from a re-analysis of the deposited data

Results flagged for a closer look

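In 4 genes with a symbol the difference past 2-fold between regenerated and normal muscle went past 1.5-fold the other way between regenerated overloaded and overloaded muscle. The difference between the pairs was not tested, since each group is 1 array. For Myh2 the second difference exceeded the first by 3.04 on the log2 scale (-1.71 and 1.33), and for Tpm1 by 1.71 (-1.06 and 0.65). For Myh4 the second minus the first was -2.52 (1.15 and -1.36), and for Pcsk1n, an inhibitor of prohormone convertase, -2.001 (1.08 and -0.92). Pcsk1n was under 2-fold in the first pair with normexp, quantile and cyclic loess normalization, and the second probe of Tpm1 had the opposite sign in the first pair, whereas Myh2 was past 2-fold under every alternative that gave it a value. Myh4 was under 2-fold with normexp.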

How the results depend on the processing

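Of 13 alternatives, the smallest difference between spots apart, none changed the sign of any of the 64 named genes past 2-fold, and 25 were under 2-fold in at least 1, 24 of them with normexp background correction. That correction left 57 genes past 2-fold, 46 higher and 11 lower, and 342 past 1.5-fold, against 143, 105, 38 and 735. The authors' deposited scaling gave 166 higher and 25 lower. Without the filter on dim probes 1084 genes passed 2-fold (396 higher and 688 lower) and 4445 passed 1.5-fold, and 52.86% of the 2-fold genes kept their sign in the overloaded pair, against 91.37%. Keeping probes printed once gave 60 lower genes. Leaving out the outer rows and columns, which leaves 5352 genes, gave 87 (66 higher, 21 lower) and 450. The smallest difference between spots gave 88 (68 and 20) and 448, as its construction lowers every difference. Medians of 17 of 47 lists changed sign in some alternative, and those medians lay between -0.22 and 0.20 as reported. The cause of these shifts was not tested except where stated. Signal over background limits what the dim genes show. No paired analysis was possible because each group has 1 array.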

Other observations

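A list of imprinted genes, expressed from 1 parental copy, was drawn up after the values were seen and supports nothing. Of 12 kept members, Cdkn1c (1.59), Nnat (1.16) and Plagl1 (1.03) were 2-fold and Mest (0.86) and Igf2 (0.71) 1.5-fold higher in regenerated muscle, Snrpn was lower (-0.65), and the median was 0.30. H19 (0.33), Dcn (0.27), Igf2r (0.14), Gnas (-0.17), Ube3a (-0.19) and Ndn (-0.33) lay within 1.5-fold. In the overloaded pair Nnat stood at 1.04, Mest at 0.56, Igf2 at 0.46, Cdkn1c at -0.03 and Plagl1 at -0.14, with a list median of -0.03.

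One transcript that matched no gene symbol had the largest difference of all kept ones. Its scaled signal was 0.131 in normal, 31.8 in regenerated, 0.112 in overloaded and 1.38 in regenerated overloaded muscle over 2 spots per array, so that it was high on both arrays of regenerated muscle. The log2 differences were 7.92 in the first pair and 3.62 in the overloaded pair.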
